A study of Mus musculus with 36 samples.

Results

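The data described here pair visceral fat with liver, mouse by mouse, in the 10 animals that had been fed a high-fat diet (HFD). They comprise 20 of the 36 RNA-seq libraries of the study, from 10 of its 18 mice, and were chosen by diet. The visceral white adipose tissue (visWAT) and the liver of each HFD mouse carry the same mouse number, as they do in the mice on the other diet. That the 2 tissues came from 1 animal rests on this number alone. Each mouse was given a fat score, which is the mean log2(FPKM + 1) of the macrophage genes Itgax, Cd68, Mpeg1 and Ctss in its visWAT minus that of the adipocyte genes Adipoq, Plin1 and Cidec. FPKM is a fragment count scaled for gene length and library size, and 1 score unit is 1 unit of log2. The score was then related to every gene of the liver, across all 10 mice and again within genotype.

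The HFD mice were 5 Mlkl Adi-KO animals (mice 151, 152, 153, 156 and 157) and 5 WT animals (mice 154, 155, 161, 162 and 164), all males on a C57BL/6J background that started the diet at an age of 16 weeks and received it for 16 weeks. Both genotypes carried loxP-flanked Mlkl alleles, the WT mice without Cre, and the Mlkl Adi-KO mice also carried Adipo-Cre, which is active in mature adipocytes, so neither the other cells of fat nor the liver were its target. A further 4 Mlkl Adi-KO and 4 WT mice on normal chow diet (NCD) served as a background. Every library carried 1 mouse number, and the fat was the epididymal depot. In the HFD visWAT, summed markers of epididymis and seminal vesicle reached at most 4.65 FPKM.

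In obese visceral fat, macrophages gather around dying or stressed adipocytes while the share of RNA from adipocytes falls, so a ratio of macrophage to adipocyte transcripts tracks the state of the depot. The liver receives fatty acids and secreted factors that leave this depot, and stores surplus lipid in droplets coated by proteins such as the perilipins and CIDE proteins. The nuclear receptors PPARG and PPARA switch on many of the genes for lipid storage and for fatty acid oxidation in hepatocytes.

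Reads on genes ranged from 20875463 to 25371396 in the HFD livers and from 21580696 to 29473670 in the HFD visWAT. In visWAT, Mlkl was at 2.53 ± 0.17 FPKM (SD, n = 5) in Mlkl Adi-KO and 5.29 ± 0.65 FPKM (SD, n = 5) in WT, and the genotypes did not overlap, with a highest value of 2.72 against a lowest of 4.58 FPKM. The liver of WT mouse 155 stood apart in markers of other cells. It held Krt19, a bile duct keratin, at 36.2 FPKM where the other livers reached at most 0.774, and the fat hormone Adipoq at 2.70 FPKM where the others reached at most 0.0443. The liver of Mlkl Adi-KO mouse 152 stood apart in macrophage genes, with Itgax at 2.66 FPKM against at most 0.582 in the others, and results without either mouse are given below.

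Fat scores ran from -5.20 to -1.75 over the HFD mice, and the low end was taken by 3 Mlkl Adi-KO animals. From low to high, they were -5.20 in mouse 157, -4.54 in mouse 156, -3.54 in mouse 151, -2.63 in WT mouse 154, -2.29 in mouse 152, -2.28 in WT mouse 162, -2.20 in WT mouse 164, -2.06 in mouse 153, -1.88 in WT mouse 161 and -1.75 in WT mouse 155. The score averaged -3.53 ± 1.37 (SD, n = 5) in Mlkl Adi-KO and -2.15 ± 0.35 (SD, n = 5) in WT, a difference of -1.38 that did not pass a two-sided exact permutation test over the 252 splits of the mice (p = 0.0794). Scores spanned 3.14 units among the Mlkl Adi-KO mice and 0.88 among the WT mice, so most of the variation to which a liver gene could be related lay within the Mlkl Adi-KO group. The NCD mice all lay lower, from -7.42 to -6.28.

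**Figure D1:**
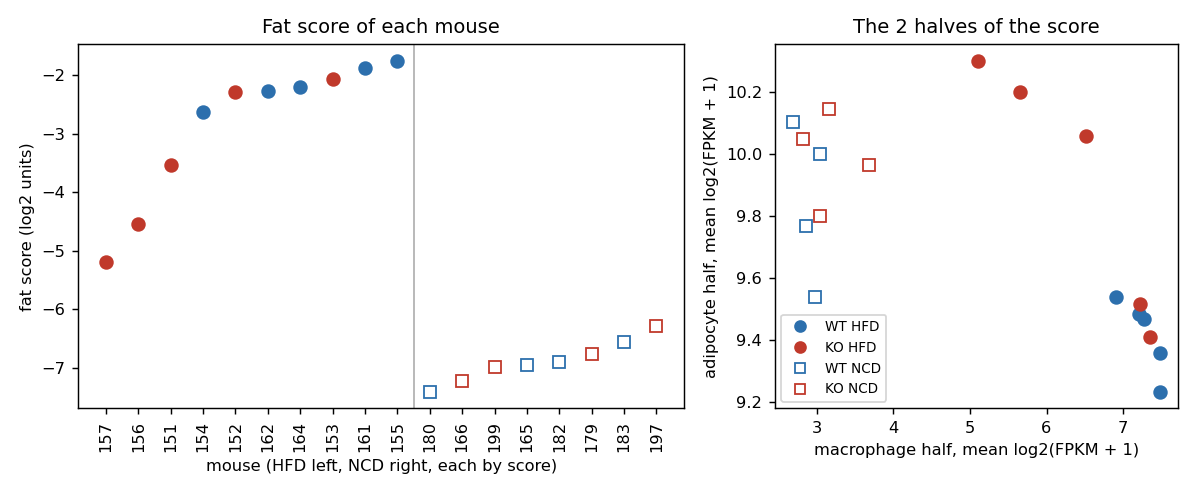
The left panel plots the fat score (log2 units) of each of the 18 mice, ordered within diet, and the right panel plots the adipocyte mean of the score against its macrophage mean, both in log2(FPKM + 1) in visWAT. Filled circles are HFD mice, open squares NCD mice, red Mlkl Adi-KO (KO in the key) and blue WT; mice 157, 156 and 151 lie between the NCD mice and the other 7 HFD mice on the macrophage axis.

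The macrophage genes moved more across the HFD mice than the adipocyte genes did. Itgax, the integrin CD11c of lipid-associated macrophages, was at 6.82, 13.3 and 20.2 FPKM in the visWAT of mice 157, 156 and 151 and between 35.4 and 48.9 FPKM in the other 7. Adipoq, which encodes adiponectin, was at 1947, 1994 and 1828 FPKM in the same 3 mice and between 743 and 1018 FPKM in the others. The macrophage mean spanned 2.38 log2 units and the adipocyte mean 1.07 log2 units.

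Other genes of visWAT followed the score in the same libraries, which is given without a test because score and gene share a library. All 20 genes of a wider macrophage list had positive slopes (median 0.56 per score unit, with r from the same libraries at a median of 0.98), including Spp1 with a slope of 1.001, the lysosomal proton pump gene Atp6v0d2 with 0.93 and Gpnmb with 0.91. Of 20 further adipocyte genes 17 had negative slopes (median -0.24), among them the hormone gene Retn with -0.82 and the beta-adrenergic receptor gene Adrb3 with -0.70. Nuclear genes of oxidative phosphorylation (OXPHOS) had negative slopes in 74 of 75 cases (median -0.15), while the median over all 13963 fat genes was 3.92e-05. The visWAT library of mouse 156 stood apart in RNA of other tissues, with summed hepatocyte markers at 1812 FPKM against 407 to 648 FPKM in the other 9, among them Alb at 459.6 against at most 53.2 FPKM. Its summed red blood cell markers were at 3909 FPKM against 305 to 1116 FPKM, and the part of this RNA in its score was not tested.

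Across all 10 livers, 9 of 27 tested lipid droplet genes and PPARG targets were higher in mice with a high fat score. Among the genes that were lower were 2 of 23 male-biased genes and 5 of 33 of secreted proteins, the last depending on scaling. A limma fit of log2(FPKM + 1) on the score called 344 of 13215 liver genes at an adjusted p of 0.05 (Benjamini-Hochberg over all genes tested), 172 with a positive and 172 with a negative slope. That is 2.6% of the genes tested, or 1.3% in each direction, and the median slope over all genes was -0.0035. An unadjusted p under 0.05 was reached by 2654 genes. The split between directions depended on scaling: the FPKM of a liver summed to less in high-scoring mice (r = -0.840, permutation p = 0.0043, adjusted p = 0.0135 over 8 depth measures; rho = -0.697, permutation p = 0.0312, adjusted p = 0.142; r = -0.797 without mice 156 and 157), and after rescaling to TPM 461 genes were called higher and 65 lower, of 15174 tested. With TMM scaling in edgeR's quasi-likelihood test on recovered reads, 276 were higher and 209 lower, and 323 of the 344 genes were among them.

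The count of calls depended most on mice 157 and 156. Without mouse 157 12 genes passed and without mouse 156 37. The other counts were 134 without mouse 164, 154 without 162, 170 without 153, 185 without 155, 205 without 152, 215 without 154, 236 without 161 and 262 without 151. Without both mice no gene passed in limma, with 1593 genes at an unadjusted p under 0.05, and 340 of the 344 genes kept the sign of their slope. Without mouse 151 as well, a fit chosen after seeing the data, no gene passed, 445 reached an unadjusted p under 0.05, and the sign held for 196 of the 341 called genes still tested.

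**Figure D2:**
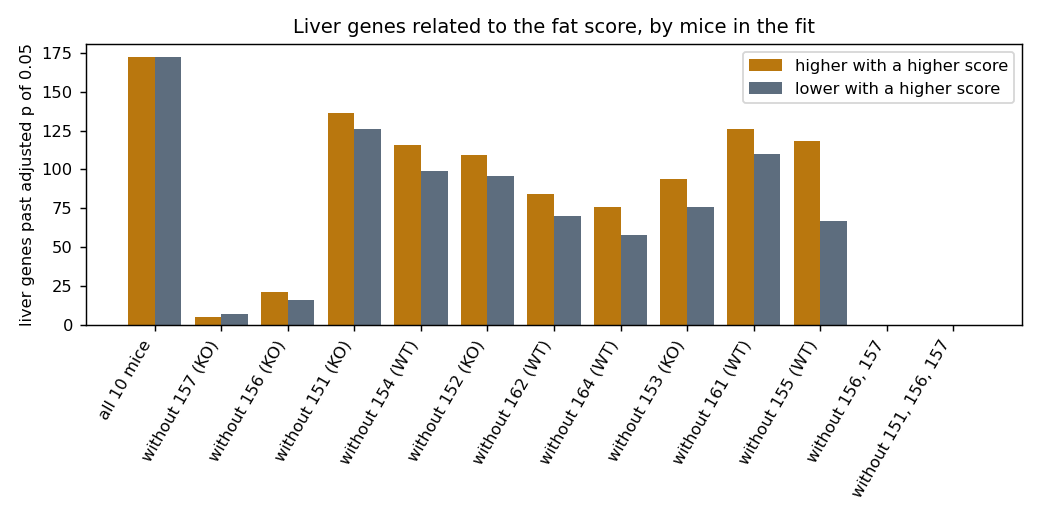
The bars count the liver genes past an adjusted p of 0.05 in the limma fit on the fat score, with positive slopes (higher with a higher score) and negative slopes side by side, for all 10 mice and for fits without the mice named on the horizontal axis. The bars fall from 172 and 172 to 5 and 7 without mouse 157 and to 0 without mice 156 and 157.

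The lipid droplet genes Cidea and Cidec gave the largest positive slopes of all called genes, followed by Cyp2b9 and Lgals1, which are not of this list. Of 27 tested genes of lipid droplets and PPARG targets, 9 were called higher and none lower in limma (14 and 1 in DESeq2), with a median slope of 0.18 against -0.0035 over all genes, and 23 slopes were positive. Without mice 151, 156 and 157, 5 slopes were positive and the median was -0.25. Liver Cidec, which encodes a protein that fuses lipid droplets, was at 6.55, 16.4 and 13.8 FPKM in mice 157, 156 and 151 and at 96.0, 63.3, 90.6, 81.3, 78.0, 63.8 and 59.1 FPKM in mice 154, 152, 162, 164, 153, 161 and 155. Its slope was 1.002 ± 0.142 (SE) log2 units per score unit (adjusted p = 0.0154). The 3 lowest-scoring mice stood clear of the other 7, while among those 7 the values fell with the score. Because visWAT Cidec is itself 1 of the 3 adipocyte genes subtracted in the score, this relation is in part one between the same gene in the 2 tissues. Cidec lies on chromosome 6 from 113401595 to 113412721 (minus strand, GRCm39).

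Plin4, a perilipin that coats droplets, was at 4.24, 6.22 and 9.52 FPKM in mice 157, 156 and 151 and between 19.2 and 37.7 FPKM in the other 7, with a slope of 0.75 ± 0.10 (adjusted p = 0.0128). Cidea, a relative of Cidec, was listed at 0 in mouse 157, stood at 2.22 and 4.0 FPKM in mice 156 and 151 and lay between 11.7 and 37.0 FPKM in the others (slope 1.28 ± 0.19, adjusted p = 0.0154). Cd36, which carries fatty acids into cells, was at 18.0, 19.5 and 21.7 FPKM in the 3 low-scoring mice and at 54.4 to 67.1 FPKM in the rest. All 3 genes thus separated the same 3 Mlkl Adi-KO livers from every other HFD liver. Pparg itself rose less sharply, from 3.66 FPKM in mouse 157 through 7.18 and 7.87 FPKM in mice 156 and 151 to 8.79 to 15.0 FPKM in the others (slope 0.35 ± 0.08, adjusted p = 0.0445). Mogat1, Plin2, Fitm1 and Fabp2 were the other members called, with slopes of 0.49, 0.30, 0.23 and 0.18.

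Of the 11 adipocyte markers measured in these livers, 8 stayed below 0.5 FPKM outside the liver of mouse 155, Adipoq at up to 0.0443 and Plin1 at up to 0.0263 FPKM, and 3 were expressed. Cfd, which encodes the protease adipsin, ranged from 2.25 to 57.5 FPKM (slope 0.78 ± 0.25, adjusted p = 0.117), Adrb3 from 1.66 to 4.002 FPKM and Slc2a4 from 0.767 to 3.92 FPKM. The summed level of the 11 ranged from 10.2 to 61.3 FPKM with r = 0.594 over the 10 mice, and its part in the lipid droplet result was not tested. Where this sum was highest it was mostly Cfd, at 57.5 of 61.3 FPKM in mouse 154 and 38.1 of 41.3 in mouse 153. Of the 3 expressed markers only Cfd had a positive slope (median of the 3 -0.13). Without mouse 155, 7 of the 27 lipid droplet genes were called, with a median slope of 0.17.

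The upstream sequences of these genes were examined for AGGTCA, the half-site that nuclear receptors such as the PPARs bind, searched on both strands in the 250 bases before each RefSeq transcription start (GRCm38.p6). It occurred in 37.5% of the 8 called lipid droplet genes with a RefSeq promoter, namely Cd36, Plin2 and Pparg. In the whole list of lipid droplet genes and PPARG targets, called or not, it occurred in 7 of 23 matched genes (30.4%). The share was thus not particular to the called members. Among all 124 matched genes called higher the share was 13.7%, among the 134 called lower 14.2%, and among the 9201 tested genes with a match 13.7%, so called genes as a whole had about the share of all tested genes. The Cd36 and Plin2 windows are printed because both hold the half-site and both genes were called; capitals mark it, here as its reverse complement. They lie at chr5:17835897-17836146 and chr4:86670060-86670309, both on the minus strand.
Cd36: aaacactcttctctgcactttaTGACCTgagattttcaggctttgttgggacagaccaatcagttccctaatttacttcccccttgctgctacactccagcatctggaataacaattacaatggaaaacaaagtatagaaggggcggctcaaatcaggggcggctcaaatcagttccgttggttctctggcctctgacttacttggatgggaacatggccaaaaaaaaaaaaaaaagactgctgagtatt
Plin2: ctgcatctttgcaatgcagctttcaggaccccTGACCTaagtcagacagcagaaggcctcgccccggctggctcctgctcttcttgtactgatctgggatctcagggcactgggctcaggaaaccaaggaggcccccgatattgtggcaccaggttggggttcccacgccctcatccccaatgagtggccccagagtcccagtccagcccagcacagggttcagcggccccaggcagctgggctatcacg

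Some genes of fatty acid oxidation rose as well. Of 30 tested genes of oxidation and ketogenesis, 5 were called higher (Cyp4a14, Fgf21, Cyp4a10, Acot2 and Acaa1b), none lower in limma, edgeR or DESeq2, and the median slope was 0.10, which became -0.10 without mice 151, 156 and 157. Cyp4a14, a fatty acid omega-hydroxylase and PPARA target, was at 49.7, 46.5 and 72.9 FPKM in mice 157, 156 and 151, at 155, 147, 163, 243, 239 and 177 FPKM in mice 154, 152, 162, 164, 161 and 155, and at 343 FPKM in mouse 153. Its slope was 0.75 ± 0.10 (adjusted p = 0.0137). The NCD livers, which had lower fat scores than any HFD mouse, held more Cyp4a14, from 763 to 1362 FPKM. Fgf21, a hormone that the liver secretes under metabolic stress, was at 1.61 and 2.05 FPKM in mice 157 and 156 and between 6.28 and 13.8 FPKM in the other 8, with a slope of 0.61 ± 0.10 (adjusted p = 0.02). Ppara was not called (slope 0.08 ± 0.07, adjusted p = 0.536) and lay between 41.4 and 73.5 FPKM. Reads may be split between Cyp4a14, Cyp4a10 and other close paralogs, so their separate values are uncertain.

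The lists of fatty acid and cholesterol synthesis held no gene called by limma. None of 23 genes of de novo lipogenesis passed in limma or edgeR (6 at an unadjusted p under 0.05, 2 called by DESeq2), among them Acaca, which encodes the enzyme for the first committed step, with a slope of -0.03 ± 0.06. None of 25 genes of cholesterol synthesis passed in limma (3 at an unadjusted p under 0.05), while edgeR called 1 and DESeq2 2. Slopes were positive for 14 of the 23 and 19 of the 25 genes (medians 0.08 and 0.04), and on the TPM scale for 19 and 21. Without mice 156 and 157, 20 of 23 and 24 of 25 were positive (both medians 0.30). Without mouse 151 as well, 9 of 23 and 5 of 25 were positive (medians -0.05 and -0.13). The regulator gene Mlxipl, encoding ChREBP, had a slope of -0.03 ± 0.04 (adjusted p = 0.745).

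**Figure D3:**
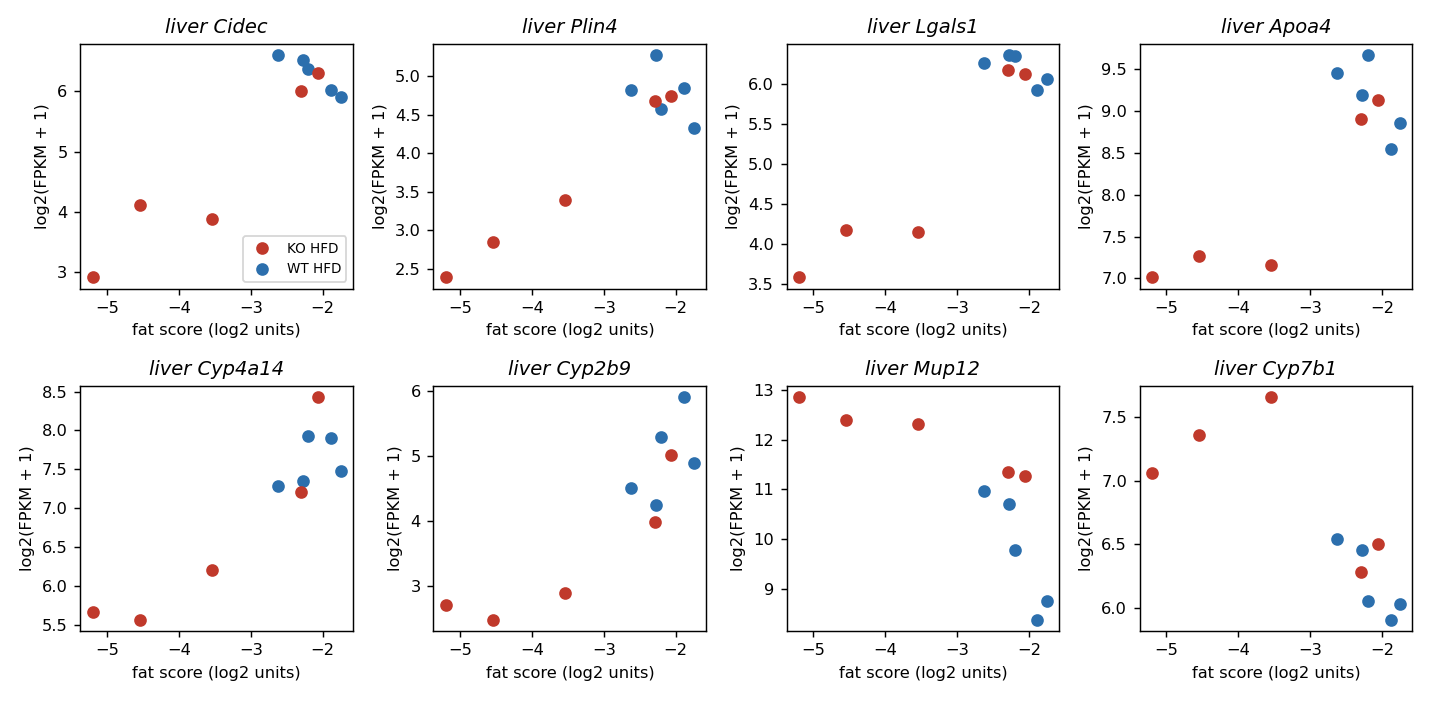
Each panel plots liver log2(FPKM + 1) of 1 gene against the fat score (log2 units), with 1 point per HFD mouse, red for Mlkl Adi-KO (KO) and blue for WT. In Cidec, Plin4, Lgals1 and Apoa4 the 3 low-scoring mice lie below the other 7, among which the values do not rise with the score, whereas among those 7 mice r was 0.581 for Cyp2b9 and -0.730 for Mup12 (exact permutation p = 0.17 and 0.0681).

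The median slopes of sex-biased liver genes kept their direction with or without the 3 low-scoring mice. Of 23 tested (24 listed) male-biased genes 22 had negative slopes, with a median of -0.22, and of 14 tested female-biased genes (31 listed) 13 had positive slopes, with a median of 0.17, in animals that were all male. In limma 2 male-biased genes (Susd4 and Cyp7b1) and 1 female-biased gene (Cyp2b9) passed the test, while 17 and 4 reached an unadjusted p under 0.05. On recovered reads edgeR called 8 male-biased genes lower and 2 female-biased genes higher. DESeq2 called 15 male-biased genes lower and 1 higher, and 3 female-biased genes higher. Without mice 151, 156 and 157 the medians were -0.20 and 0.31, with 4 of 22 male-biased and 12 of 16 female-biased slopes positive.

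Cyp7b1, an oxysterol hydroxylase of bile acid synthesis, was at 132, 163 and 201 FPKM in mice 157, 156 and 151 and between 58.9 and 92.0 FPKM in the others (slope -0.40 ± 0.09, adjusted p = 0.0497). Cyp2b9, a cytochrome P450 that is higher in females, was at 5.54, 4.56 and 6.42 FPKM in the same mice and rose from 14.9 to 59.0 FPKM over the other 7 (slope 0.87 ± 0.14, adjusted p = 0.02). Mup12, a major urinary protein gene, fell from 7427 FPKM in mouse 157 to 331 and 429 FPKM in the high-scoring WT mice 161 and 155, a slope of -1.04 ± 0.23 (adjusted p = 0.0461). The genotypes did not overlap in Mup12, from 2473 to 7427 FPKM in Mlkl Adi-KO and from 331 to 2006 FPKM in WT, and genotype by itself gave an adjusted p of 0.122 in limma. The Mup genes are near-identical copies in a cluster on chromosome 4, so that reads could be assigned to the wrong copy.

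Among xenobiotic-metabolising P450 genes, 5 of 28 were called higher (Cyp2b9, Cyp2c38, Cyp2a22, Cyp2c39 and Cyp3a59) and none lower in limma, with a median slope of 0.04, while edgeR called 6 higher and 1 lower and DESeq2 6 higher and 3 lower. Cyp2c38 was at 5.58, 11.8 and 8.34 FPKM in mice 157, 156 and 151 and between 27.3 and 35.6 FPKM in the rest. In glutathione and redox metabolism 4 of 37 genes were called higher, namely Nqo1, Gsta2, Mgst3 and Gstk1, with slopes from 0.09 to 0.31. Gsta4, a glutathione transferase gene that the study follows in fat, was not called in liver (slope -0.11 ± 0.07, adjusted p = 0.382).

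Genes of secreted liver proteins gave calls in both directions, and the balance turned with scaling. Of 33 tested genes of secreted factors 5 were called lower (Enho, Igfbp2, Itih5, Ahsg and Fetub) and 1 higher (Fgf21), with a median of -0.03 that became 0.02 on the TPM scale, where 1 was called lower and 4 higher. Igfbp2, an insulin-like growth factor binding protein, was at 358, 335 and 360 FPKM in mice 157, 156 and 151 and at 134 to 184 FPKM in the other 7 (slope -0.43 ± 0.07, adjusted p = 0.02). Enho, which encodes the peptide adropin, was at 15.3, 15.0 and 10.4 FPKM in these mice and at 2.91 to 8.54 FPKM in the others. Of the apolipoproteins, Apoa4 was called higher, at 128, 153 and 142 FPKM in the 3 low-scoring mice and 373 to 813 FPKM in the rest, and Apom lower, at 204 to 228 FPKM against 125 to 158 FPKM.

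Further genes with large slopes fell outside these lists. Lgals1, which encodes the lectin galectin-1, was at 10.97, 17.0 and 16.8 FPKM in mice 157, 156 and 151 and at 59.3 to 80.8 FPKM in the others (slope 0.84 ± 0.11, adjusted p = 0.0128). The tubulin gene Tubb2a rose with the score with a slope of 0.66 ± 0.14 (adjusted p = 0.0422). Cadm4, a cell adhesion gene, fell, from 8.32, 7.92 and 6.23 FPKM in the low-scoring mice to 1.57 to 2.44 FPKM in the others (slope -0.58 ± 0.07, adjusted p = 0.0128). C8b, a gene of the terminal complement pathway, was at 166, 174 and 177 FPKM in mice 157, 156 and 151 and between 67.5 and 99.9 FPKM in the others (slope -0.36 ± 0.07, adjusted p = 0.0258). Among the named genes, which leave out predicted genes, pseudogenes and genes under a mean of 1 FPKM, Avpr1a, the vasopressin receptor of hepatocytes, Cela1 and Capn8 also fell, with slopes from -0.42 to -0.34.

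Liver macrophage genes did not pass in limma, although fat macrophage genes defined the score. None of 28 tested members was called (4 at an unadjusted p under 0.05, 1 called by edgeR and 3 by DESeq2). Slopes were positive for 27 of the 28, and the median slope was 0.13, or 0.08 without mouse 152. In the fit without mice 151, 156 and 157, 6 of 30 slopes were positive and the median was -0.23. Liver Cd68 was at 4.28, 3.38 and 3.60 FPKM in mice 157, 156 and 151, at 14.8 FPKM in mouse 152 and between 4.18 and 5.997 FPKM in the other 6 (slope 0.18 ± 0.12, adjusted p = 0.457). The summed liver macrophage genes ranged from 310 to 679 FPKM with r = 0.182 over the 10 mice, against 1765 to 6378 FPKM in visWAT. C6 alone made up 72.8 to 142.6 FPKM of the liver sum and was highest in the low-scoring mouse 151. The 20 genes of the wider macrophage list, summed in liver, gave r = 0.403. In bulk tissue, fewer cells of a type and less RNA per cell cannot be told apart.

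The genes of 3 matrix proteins were higher in high-scoring livers. Of 26 tested genes of stellate cells and matrix, Col1a1, Col4a1 and Dcn were called and 24 slopes were positive, with a median of 0.19, but without mouse 152 none was called and without mouse 155 only 1. Among the other 7 mice, without mice 151, 156 and 157, 12 of 29 slopes were positive and the median was -0.06. Col1a1 was at 0.820, 0.718 and 0.923 FPKM in mice 157, 156 and 151 and between 1.95 and 5.32 FPKM in the others.

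Summed hepatocyte markers ranged from 63810 to 78365 FPKM and were lower in high-scoring mice (r = -0.874 over the 10 mice), and 12 of 13 had negative slopes, a measured shift whose part in the other results was not tested. FPKM as a whole also summed to less in those livers (r = -0.840). On the TPM scale 4 of the 13 marker slopes were positive, and the median was -0.06 against -0.10 in the main fit. With mice 151, 156 and 157 left out, 8 of the 13 slopes were positive (median 0.07). The day arm of the clock had negative slopes in all 12 genes (median -0.08), of which none passed in limma or edgeR (4 at an unadjusted p under 0.05, 3 called by DESeq2), while on the TPM scale 4 were positive and without mice 151, 156 and 157 7 (median 0.01). Liver Mlkl was not called on the score (slope 0.09 ± 0.05, adjusted p = 0.316) and lay between 1.81 and 3.46 FPKM. Ribosomal protein genes, singled out after their values were seen, had negative slopes in 81 of 85 cases (median -0.07), with 15 called lower, but none was called on the TPM scale and 2 without mouse 155 or without mouse 152.

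Immune and stress genes of the liver gave few calls. In limma none of 33 interferon response genes, 33 acute phase genes, 28 ER stress genes, 17 genes of necroptosis and cell death and 6 genes of MHC class II antigen presentation passed, with 3, 9, 4, 2 and 3 at an unadjusted p under 0.05. On recovered reads edgeR called only 1 of these genes, an ER stress gene that was lower, while DESeq2 called 1, 6, 1, 1 and 1. The median slopes were 0.03, 0.02, -0.02, 0.01 and 0.28, and that of the ER stress list turned to 0.02 on the TPM scale. Without mice 151, 156 and 157 the medians were -0.01, -0.04, -0.09, -0.06 and -0.45, with none of the 6 MHC class II slopes positive. Coagulation factors and inhibitors, singled out after their values were seen, had negative slopes in 18 of 21 cases (median -0.09), with F11, F7, F10, F12 and Serpinc1 called lower at slopes from -0.28 to -0.08, but without mouse 155 only 1 was called and without mouse 152 2. On the TPM scale 2 were called lower and 1 higher, and without mice 151, 156 and 157 14 slopes were positive (median 0.04).

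**Figure D4:**
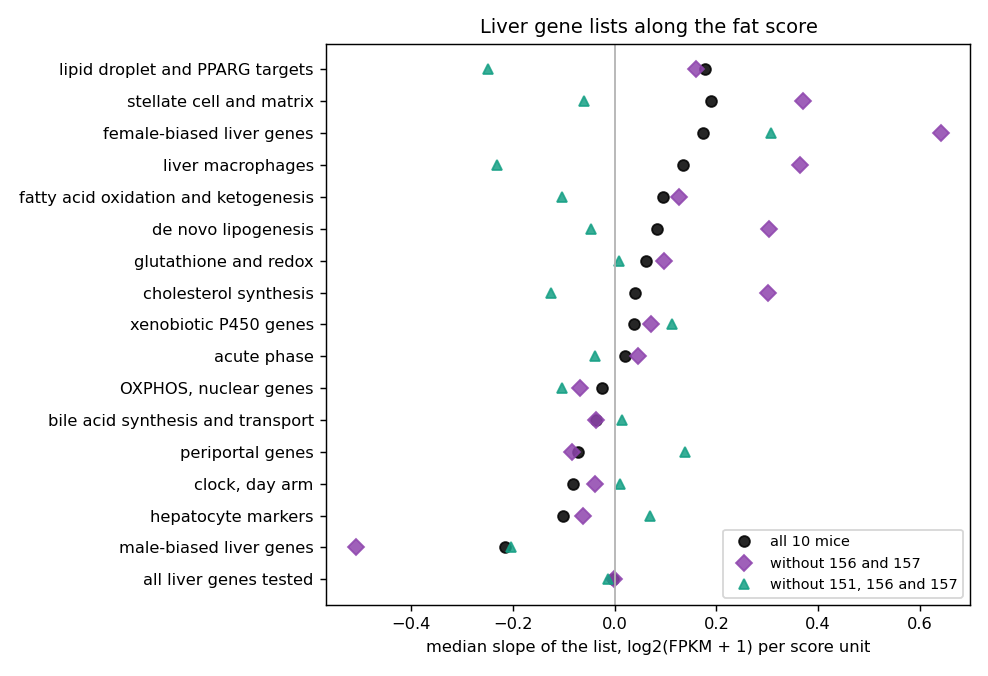
Points give the median slope of each gene list in liver, in log2(FPKM + 1) per score unit, from the limma fit to all 10 HFD mice (black circles), without mice 156 and 157 (purple diamonds) and without mice 151, 156 and 157 (green triangles). The lipid droplet list moves from 0.18 and 0.16 to -0.25, while male-biased genes stay below 0 and female-biased genes above 0 in all 3 fits.

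After each genotype was given its own mean, no liver gene passed the threshold in limma, with a smallest adjusted p of 0.116 and 1889 genes at an unadjusted p under 0.05. On recovered reads edgeR called 3 genes and DESeq2 365, so the count of 0 depended on the tool, and without mouse 151 limma called 3. All 344 genes called over the 10 mice kept their sign in this fit, with a median within-genotype slope of 0.928 times the overall slope. Both largely follow from picking the genes on the same 10 mice, where most of the score's variation lay within Mlkl Adi-KO. The genes with the smallest p in each direction, none of them past the threshold, were Gpat3, S100a10, Fgf21, Acyp2 and Aox1 with positive slopes and Paxx, Pigx, Pabpc4, Wdr46 and Hs3st3b1 with negative ones. Gpat3, which adds the first acyl chain in triglyceride synthesis, was at 2.53, 2.99 and 3.30 FPKM in mice 157, 156 and 151 and between 4.25 and 5.99 FPKM in the other 7 (within-genotype slope 0.31 ± 0.04).

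The slope within genotype rested on the Mlkl Adi-KO mice, in which the score varied most. All 344 called genes had the same sign in the Mlkl Adi-KO mice, which the choice of genes largely fixes, and 194 of the 344 had that sign in the WT mice. Cidec had slopes of 1.01 ± 0.12 in Mlkl Adi-KO and -0.85 ± 0.47 in WT, Plin4 of 0.77 ± 0.09 and -0.48 ± 0.34, and Cyp4a14 of 0.81 ± 0.14 and 0.41 ± 0.55. The difference of slope between genotypes was called for no gene by limma (515 genes, or 3.90%, were at an unadjusted p under 0.05), so the slopes of the 2 genotypes were not shown to differ, and with scores spanning 0.88 units the WT slopes were imprecise.

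**Figure D5:**
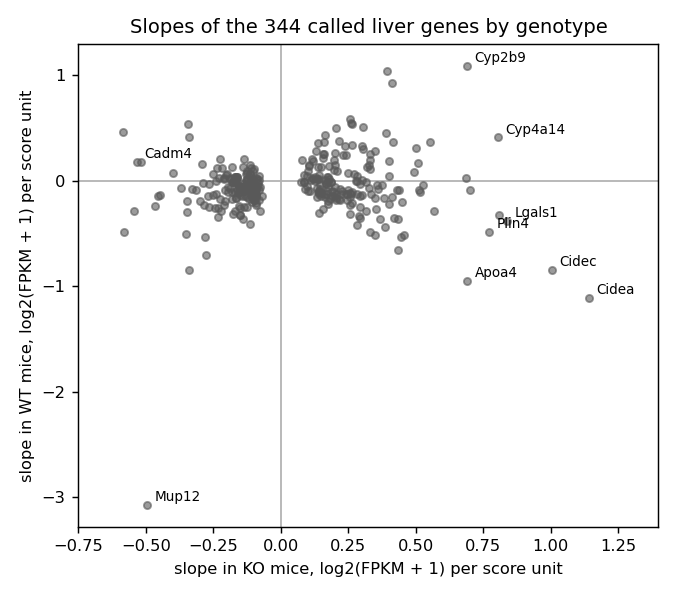
Each point is 1 of the 344 called liver genes, with its slope in Mlkl Adi-KO (KO) mice on the horizontal axis and its slope in WT mice on the vertical axis, in log2(FPKM + 1) per score unit from the fit with an interaction. The Mlkl Adi-KO slopes leave a gap around 0 that the choice of genes creates, and the WT slopes scatter to both sides of 0, with 194 of the same sign.

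Genotype by itself called 26 liver genes (0.197% of 13215), of which 17 had their higher level in Mlkl Adi-KO and 9 in WT. With the score in the fit it called 12 (0.0908%), 8 of them higher in Mlkl Adi-KO and 4 in WT, and 9 were among the 26. Leaving out 1 mouse gave from 9 (without mouse 151 or 153) to 37 (without mouse 152) calls for genotype by itself, with 11 to 13 without WT mouse 154, 161, 162 or 164. With the score it gave from 1 (without mouse 152) to 17 (without mouse 156) calls, with 4 without mouse 154, 6 without mouse 153 and 7 without mouse 161, 162 or 164. On the TPM scale the first split was 12 higher and 16 lower. None of the 26 was among the 344 genes called on the score, which were 2.6% of all genes tested. At that share, 26 genes are too few for the lack of overlap to be read as a result. Lpin1, which makes the diacylglycerol used for triglyceride, had an overall slope of 0.22 ± 0.21 and a within-genotype slope of -0.28 ± 0.07 (adjusted p = 0.152), since it was at 16.7 to 31.2 FPKM in Mlkl Adi-KO and 53.7 to 92.4 FPKM in WT livers.

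Single relations were computed for the 165 named liver genes, most of which had been picked for this very relation, so that the p-values describe and do not test the choice. Pearson's r passed an adjusted p of 0.05 for 108 genes in a two-sided permutation test with 100000 resamples. Spearman's rho passed for none, with a smallest adjusted p of 0.0501 and 52 genes at an unadjusted permutation p under 0.05. For Cidec, r was 0.909 (permutation p = 0.00376, adjusted p = 0.0173) and rho 0.430 (permutation p = 0.219, adjusted p = 0.291). Without mice 157 and 156, the 2 farthest from the median score, its r was 0.731 (exact permutation p = 0.123), and without mouse 151 as well it was -0.775 (exact permutation p = 0.0387). The positive relation of Cidec to the score therefore rested on those 3 mice. Of the 10 named genes with the largest positive slopes, 3 kept a positive r among the remaining 7 mice, and of the 10 with the largest negative slopes 7 kept a negative r.

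Cyp4a14 gave r = 0.921 (permutation p = 5e-04, adjusted p = 0.0137) and rho = 0.867 (permutation p = 0.00233, adjusted p = 0.0501), with r = 0.811 without the 2 extreme mice (exact permutation p = 0.0224). Acyp2, an acylphosphatase gene, gave r = 0.950 (permutation p = 0.00018, adjusted p = 0.0137), rho = 0.891 (permutation p = 0.00109, adjusted p = 0.0501) and r = 0.752 without those 2 mice (exact permutation p = 0.028). Its r was 0.836 in the remaining 7 (exact permutation p = 0.0256), and it was at 0.708 and 0.865 FPKM in mice 157 and 156 and between 1.43 and 2.60 FPKM in the other 8. After centring within genotype, with all 14400 arrangements of the mice within genotype, only Mup12 passed over the 165 genes (r = -0.683, exact permutation p = 0.000208, adjusted p = 0.0344), and 36 genes had an unadjusted exact p under 0.05.

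In the 8 NCD mice, no liver gene was related to the score at an adjusted p of 0.05 in limma (0% of 13193), and 176 genes reached an unadjusted p under 0.05. Scores there spanned 1.13 units. The visWAT libraries of WT mice 182 and 183 stood apart, with a chi-square per gene of 207 to 959 against NCD WT libraries. It was 37.0 between mice 165 and 180. FPKM summed to 564718 in the visWAT of mouse 183 and to 241025 to 309820 in the other NCD visWAT. The liver of mouse 182 also stood apart, at 107 to 123 against 12.1 to 20.7 among the other NCD WT livers. Without mice 182 and 183 no gene passed either. Of the 344 genes called in HFD mice 332 were tested in NCD mice, and 132 of these had a slope of the same sign.

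Levels of the same gene in the 2 tissues of a mouse are given as a description, after centring within genotype and over 10 mice that share libraries across genes. The median r over the 11312 genes expressed in both tissues was 0.068. It was 0.65 for 24 stellate cell and matrix genes, 0.51 for 23 genes of cholesterol synthesis, 0.47 for 75 nuclear OXPHOS genes and 0.43 for 25 genes of fat mitochondria and lipogenesis, but -0.37 for 13 mitochondrially encoded OXPHOS genes and -0.13 for 24 lipid droplet genes. Cidec went the opposite way, with r = -0.91, from 1447 to 2461 FPKM in visWAT and from 6.55 to 96.0 FPKM in liver, and Lgals1 likewise with r = -0.88. Single genes with a high positive r included Tubb2a at 0.92, the clock gene Per1 at 0.91 and the glucocorticoid target Tsc22d3 at 0.87.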

How the data were processed

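RNA of visWAT and liver from 18 male mice was sequenced, 1 library per tissue and mouse. Per the labels, reads were counted with featureCounts 1.5.0-p3 on mm39, and the paper's methods name polyA selection, fastp and HISAT2 before this step. Strandedness, annotation release and the handling of reads that fit several genes are not given in the sources used here, so values of overlapping genes and close copies are uncertain. FPKM of 56748 genes were deposited by the authors, as were raw counts for the genes listed in their comparison tables. Their log2 fold changes and p-values in those tables were not used. A further 72 columns of per-sample values were not used. The deposited counts gave the library size behind each FPKM column, and FPKM turned back into reads were whole within 0.01 for 100% of values. Divided by the reads on genes, this size gave 0.737 to 0.799 in HFD livers and 1.30 to 1.40 in HFD visWAT, so deposited FPKM carry a scaling between libraries. Intervals and tests cover the spread between mice, and genes near 0.5 FPKM rest on few reads.

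Liver log2(FPKM + 1) was fitted on the fat score with limma 3.58.1 in R 4.3.3, with an empirical Bayes trend, for genes with mean FPKM of at least 0.5, and p-values were adjusted by Benjamini-Hochberg over all of them. Fold changes on this scale understate low genes. The within-genotype fit added genotype, the difference of slopes their product, and the edgeR 4.0.16 and DESeq2 1.42.0 fits used recovered reads. Fits were tested on simulated data. Mice are replicates by mouse number, and no pair of replicate libraries was alike (chi-square per gene of 9.82 or more). Single relations used permutation tests written with numpy 2.4.6 under Python 3.11.15, with ranks from scipy 1.17.1. Named genes were the 10 largest slopes in each direction among called genes with mean FPKM of at least 1, the same sign without each mouse and within genotype, 5 in each direction within genotype, genes the paper names, the score genes and up to 4 genes per list, without predicted genes and pseudogenes. Others were chosen after their values were seen, as were the ribosomal list and the fit without mice 151, 156 and 157. The mice, score, rule and lists were chosen with earlier results of these data known. Alternatives were the pseudocount, TPM, each of its gene sets alone, wider score lists, ranks, filters, no trend, other tools and leaving out mice.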

Additional observations from a re-analysis of the deposited data

Results flagged for a closer look

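The groups examined were liver levels of some of the called genes and other key genes in each HFD genotype, and fat scores by genotype and diet. Of these 136 groups of 5 or 4 values, 10 had 1 mouse whose gap to its nearest neighbour was an unusually large share of the range. Chance gives about 1 in 20. In Mlkl Adi-KO livers the share was 0.855 for Itgax, 0.796 for Cd68 and 0.723 for Ctss, each with mouse 152 highest, 0.805 for Mlkl with mouse 152 highest and 0.772 for Ip6k2 with mouse 151 lowest. In WT livers it was 0.752 for C8b with mouse 164 lowest, 0.737 for Paxx with mouse 154 highest, 0.757 for Mlkl with mouse 162 highest, 0.795 for Gstk1 with mouse 164 highest and 0.832 for Hsd17b10 with mouse 162 highest.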

How the results depend on the processing

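The count of 344 liver genes over the 10 mice became 1058 with DESeq2, 576 with the adipocyte genes alone as the score, 526 on the TPM scale (230 of them among the 344), 182 with the macrophage genes alone, 72 without a filter on low values, and 0 with ranks of the score, without mice 156 and 157 (also the 2 mice farthest from the median) and without mice 151, 156 and 157, the last chosen after seeing the data. It stayed within 1.5 times of 344 with edgeR, a pseudocount of 0.1, a mean FPKM of at least 1, no trend and the wider score. Leaving out 1 mouse gave 12 to 262 genes over all mice, 0 to 3 within genotype, 9 to 37 for genotype by itself, 1 to 17 for genotype beside the score and 0 to 107 for the single relations, where all mice gave 108. Within genotype DESeq2 gave 365 and edgeR 3. The single relations fell to 24 with ranks and to 0 without mice 156 and 157 or mice 151, 156 and 157. The difference of slopes and the NCD fits gave 0 under each alternative run.

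Without mice 151, 156 and 157 the slopes over all mice reversed to -0.90 for Cidea, -0.72 for Cidec, -0.37 for Lgals1, -0.44 for Plin4, -0.83 for Apoa4, -0.18 for Tubb2a, -0.26 for Fgf21, 0.17 for Cadm4, 0.38 for Enho and 0.11 for Igfbp2, and the within-genotype slopes to -0.22 for Fgf21, -0.048 for Aox1 and -0.012 for S100a10; the cause was not tested. No paired analysis was possible because Mlkl Adi-KO and WT mice share no mouse number, and a number pairs only the 2 tissues of a mouse. With 10 mice, of which 3 hold most of the score's range, a slope among the other 7 is imprecise.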
